A study of Mus musculus with 6 samples.

Results

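The 10 genes described here encode secreted ligands, receptors and antagonists of the bone morphogenetic protein (BMP) pathway: the ligands Bmp2, Bmp4, Bmp5, Bmp6 and Bmp7, the receptors Bmpr1a and Bmpr2, and the extracellular modulators Bmper, Grem1 and Chrd. They were taken by gene symbol, and all 10 were found among the 46078 genes of the deposited count tables. The 6 libraries were made from mesoderm, the middle germ layer, of wild-type E7.25 mouse embryos, cut out and cultured as explants on fibronectin. The groups were PD (2 libraries, an inhibitor known here only by that code, 1 µM for 16 h), YZ9 (2 libraries, 10 µM for 16 h) and control (2 libraries). YZ9 blocks PFKFB3, a kinase whose product speeds up glycolysis. Explants of every group had first attached for 3 to 4 h in medium with rat serum, which contains signalling proteins of its own. The labels give 27 h of culture and the series text 24 h, and the series text names embryos of a reporter strain for WNT signalling where the labels give wild type. Whether the controls received a vehicle, and how many embryos went into a library, is not given in the sources used here.

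BMP ligands are secreted dimers that bring a type I receptor and a type II receptor together on the cell surface. The type II receptor activates the type I receptor, which phosphorylates the transducers SMAD1, SMAD5 and SMAD9, and these enter the nucleus with SMAD4. Antagonists such as gremlin and chordin bind the ligands outside the cell. In the gastrulating mouse embryo the pathway is known for its part in forming mesoderm, the primordial germ cells, the allantois, blood and the heart.

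Total counts ranged from 21253194 to 27810161 per library. Levels are given below as CPM, the counts scaled to a common library total after TMM normalization, which corrects for differences in composition. Xist and Y-linked counts, read from the data because the labels give no sex, were those of female embryos in PD replicate 2 and YZ9 replicate 2 and of male embryos in the other 4 libraries. Spry4, a feedback inhibitor of the ERK pathway, had 0 counts in both PD libraries, 378 and 286 in the YZ9 libraries, and 630 and 699 in the controls. Among the markers of mesoderm, T, Tbx6 and Mesp1, which mark the streak and newly formed mesoderm, had between 0 and 8 counts per library. The 12 mesoderm markers together, which include Hand1, Gata4, Kdr and Vim, summed to 1467 and 1875 CPM with PD, 1458 and 1410 CPM with YZ9, and 1946 and 1507 CPM in controls. Vim was the largest part of that sum in every library, between 547 and 1283 CPM. The authors' deposited tables call Foxf1 and Pdgfra higher with PD (adjusted p = 0.00172 and 7.95e-09) and 0 of these markers lower with either inhibitor. In edgeR 0 of the 9 tested mesoderm markers passed an adjusted p of 0.05. The labels do not say whether libraries of the same group were separate cultures, so p-values measure only the spread between these libraries, and in these bulk samples fewer cells of a type and less RNA per cell cannot be told apart.

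Bmp4 was the most abundant member by length, and the antagonists Grem1 and Chrd were the least abundant. To compare genes, CPM were divided by the length in kilobases of all annotated exons of a gene, merged over its transcripts. On that scale, averaged over the 6 libraries, Bmp4 was at 143 CPM per kb, Bmpr1a at 17.6, Bmp2 at 16.8, Bmpr2 at 6.30, Bmp7 at 2.96, Bmp5 at 2.05, Bmper at 1.43, Bmp6 at 0.994, Grem1 at 0.272 and Chrd at 0.0435. Bmp4 stood above 97.6% of the 15568 genes tested that had a length, and its lowest library (103 CPM per kb) lay above the highest library of the next member, Bmpr1a (22.7 CPM per kb). Bmpr1a and Bmp2 overlapped over the 6 libraries and had no order beyond their spread, as did every neighbouring pair from Bmpr2 down to Chrd. The lowest library of Bmp2 (12.5 CPM per kb) lay above the highest of Bmpr2 (7.31 CPM per kb). That order depends on the division by length. In CPM Bmpr2 was the higher, at a mean of 113 against 59.6 for Bmp2.

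**Figure D1:**
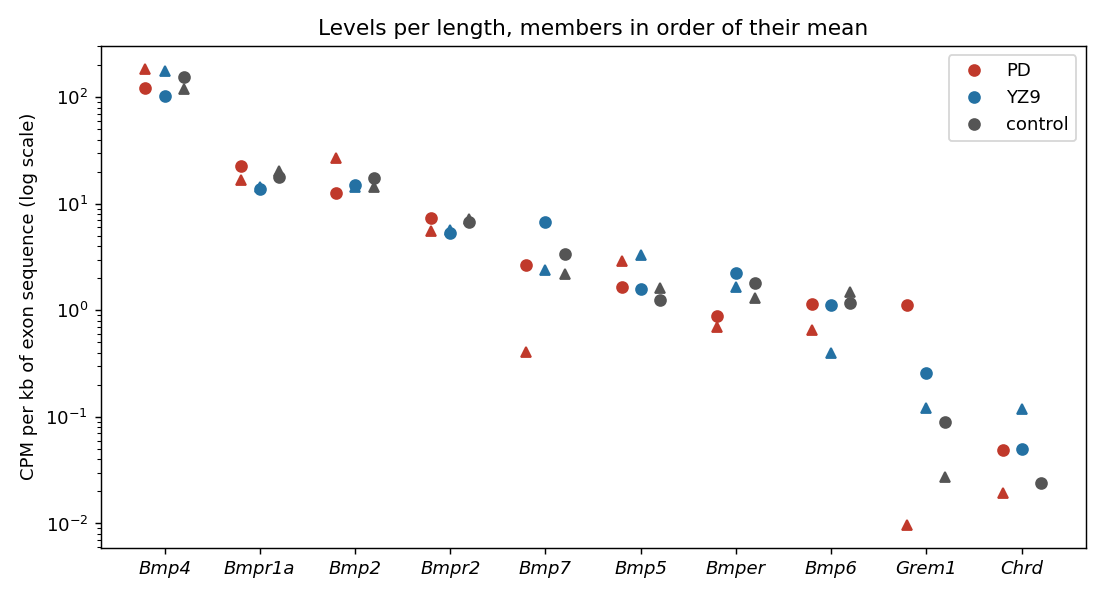
Level of the 10 members as CPM per kilobase of exon sequence (vertical axis, log scale), ordered by their mean. Each point is a library (circle, replicate 1; triangle, replicate 2; colour, group); the Chrd value of 0 in control replicate 2 cannot be drawn on a log scale. Bmp4 lies above every other member in each library, between 103 and 185 CPM per kb.

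Of the summed level per length of the 5 ligands, Bmp4 made up 87.1% and 85.7% with PD, 80.9% and 89.6% with YZ9, and 87.0% and 85.7% in controls. Bmp2 was the next ligand in every library, with 8.98% and 12.4% with PD, 11.7% and 7.33% with YZ9, and 9.77% and 10.5% in controls. Bmp5, Bmp6 and Bmp7, which form a subfamily of closely related ligands, each took between 0.190% and 5.30%. Bmp4 was thus the main transcript among these 5 ligands in all groups, and its shares overlapped between the groups. The shares leave out the 9 other BMP and GDF ligand genes described below. Of those Gdf6 was the highest, at a mean of 15.2 CPM over all libraries against 11.9 CPM for Bmp7 and 322 CPM for Bmp4.

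No member passed an adjusted p of 0.05 in edgeR, a test that also missed large differences in these data. With PD 3 of the 6 ERK targets passed it. Dusp6, an ERK target at 4.38 and 1.13 CPM with PD and 240 and 226 CPM in controls, did not (edgeR adjusted p = 0.0655). Etv5, with 0 counts in both PD libraries and 401 and 261 in controls, had an edgeR adjusted p of 0.0975. A missing call therefore does not show that a member was unchanged. Of the 10 members, 9 had enough counts to be tested and Chrd did not. With PD against control edgeR called 0 of the 9, where 0.0964% of the 15568 genes tested were called, and 1 member, Bmper, had an unadjusted p under 0.05, where 10.8% of all genes did. With YZ9 against control edgeR called 0 of the 9, where 0.00642% of all genes were called, and 0 members had an unadjusted p under 0.05, where 11.3% of all genes did. With PD against YZ9 edgeR called 0 of the 9, where 0.122% of all genes were called, and Bmpr1a and Bmper had an unadjusted p under 0.05, where 11.5% of all genes did. DESeq2 and limma-trend called 0 members against control, and with PD against YZ9 DESeq2 called 1, Bmper, where it called 3.61% of the filtered genes and, with no filter, 3.22%. By the authors' deposited tables, none (0 of 9) of the members with an adjusted p passed for PD, where 3.67% of genes did, and 0 of 10 for YZ9, where 3.85% did. The members' median log2 fold change was 0.063 with PD, 0.027 with YZ9 and 0.23 for PD against YZ9, beside 0.0044, 0.0021 and -0.0016 over all genes tested. The 2 inhibitor comparisons share their controls, and the inhibitors differ in dose.

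**Figure D2:**
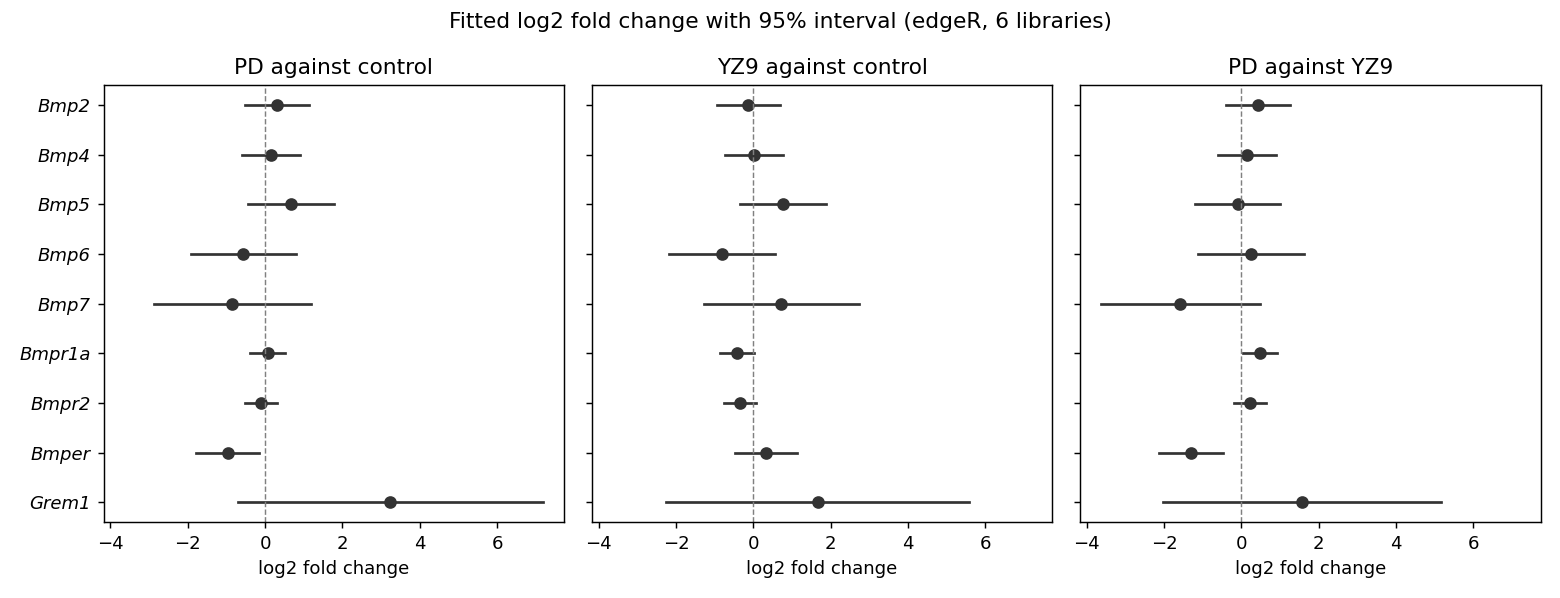
Fitted log2 fold change (point) and its 95% interval (line) of the 9 tested members in the 3 comparisons, from edgeR over the 6 libraries. Every interval includes 0 except those of Bmper for PD against control and of Bmpr1a and Bmper for PD against YZ9, and none of the 9 members passed after adjustment over all genes.

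Bmp4 encodes a ligand that mesoderm formation in the mouse requires; the gene (ENSMUSG00000021835) lies on the minus strand of chromosome 14, 46383520 to 46390669 in GRCm38. It was at 273 and 416 CPM with PD, 233 and 396 CPM with YZ9, and 350 and 267 CPM in controls. All 3 groups overlapped, and the higher value belonged to replicate 2 with either inhibitor and to replicate 1 in controls. Exons of Bmp4 share 3.96% of their sequence with Gm15217 on the opposite strand. The log2 fold change was 0.16 with PD (SE 0.31, 95% interval -0.59 to 0.91, edgeR adjusted p = 0.935) and 0.027 with YZ9 (SE 0.31, 95% interval -0.72 to 0.78, adjusted p = 0.980). These intervals correspond to 0.664-fold to 1.88-fold with PD and 0.606-fold to 1.71-fold with YZ9. Without YZ9 replicate 2 the value for YZ9 was -0.39, and with sex in the model it was -0.37 (adjusted p = 0.511). No control library was female, so the part of sex in the level of Bmp4 was not tested beyond that model.

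Bmp2 encodes the ligand closest in sequence to BMP4, known in the mouse for its role in the developing heart; the gene (ENSMUSG00000027358) lies on chromosome 2, 133552159 to 133562885. It was at 44.5 and 95.6 CPM with PD, 53.0 and 51.2 CPM with YZ9, and 62.1 and 51.4 CPM in controls. PD replicate 1 was the lowest of the 6 libraries and PD replicate 2 the highest, while the YZ9 and control libraries lay close together. The log2 fold change was 0.30 with PD (SE 0.34, adjusted p = 0.864) and -0.12 with YZ9 (SE 0.34, adjusted p = 0.917), and the value for PD was -0.35 without PD replicate 2. The 8 blood and endothelial markers summed to 484 and 4049 CPM with PD, 233 and 800 CPM with YZ9, and 1039 and 1999 CPM in controls. Their sum was highest in PD replicate 2, the library with the highest Bmp2 and Bmp4, where the globin gene Hbb-bh1 alone was at 3476 CPM. Of the other markers, Tal1, Gata1 and Tek were also highest in that library, Cdh5 and Etv2 were lowest there, and Pecam1 and Runx1 were neither. The part of these markers in the levels of Bmp2 and Bmp4 was not tested.

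The ligands Bmp5, Bmp6 and Bmp7 had fewer counts than Bmp2 and Bmp4 in every library. Bmp5 (chromosome 9, 75775364 to 75900310) was at 6.65 and 11.7 CPM with PD, 6.36 and 13.3 CPM with YZ9, and 5.06 and 6.47 CPM in controls. Both PD libraries lay above both controls, YZ9 replicate 1 lay between the controls, and no comparison passed (log2 fold change 0.67, SE 0.46 with PD and 0.77, SE 0.46 with YZ9; adjusted p = 0.719 and 0.572). Of the exon sequence of Bmp5, 46.7% is shared with the antisense gene Gm26903, and since strand is lost in these libraries, reads from the shared stretch belong to either gene. Bmp6 (chromosome 13, 38345107 to 38500302) was at 4.46 and 2.54 CPM with PD, 4.39 and 1.55 CPM with YZ9, and 4.57 and 5.76 CPM in controls. All 4 inhibitor libraries lay below both controls, the replicate 1 libraries by little, and the log2 fold changes did not pass (-0.56, SE 0.57, with PD and -0.80, SE 0.57, with YZ9; adjusted p = 0.845 and 0.629). Exons of Bmp6 share 5.74% of their sequence with Txndc5 on the opposite strand.

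Bmp7, a ligand also known from kidney and eye development, showed the widest range among the ligands. The gene (chromosome 2, 172868012 to 172940321) was at 10.6 and 1.65 CPM with PD, 27.2 and 9.65 CPM with YZ9, and 13.5 and 8.81 CPM in controls. The counts behind these were 277 and 41, 608 and 286, and 359 and 234 in the same order, so PD replicate 2 was the lowest library and YZ9 replicate 1 the highest. Both groups overlapped the controls, and the log2 fold change was -0.85 with PD (SE 0.85, adjusted p = 0.837), 0.73 with YZ9 (SE 0.84, adjusted p = 0.771) and -1.58 for PD against YZ9 (SE 0.86, adjusted p = 0.542). Without PD replicate 1 the value for PD was -2.75, and without YZ9 replicate 1 the value for YZ9 was -0.20. The 8 cardiac markers, which include Myl7 and Tnnt2, also differed between these libraries: they summed to 3931 and 1444 CPM with PD, 3533 and 1700 CPM with YZ9, and 5072 and 4229 CPM in controls. Actc1 was the largest part of that sum in every library, between 629 and 3309 CPM. Nkx2-5, Isl1, Tnnt2 and Myh6 were highest in YZ9 replicate 1, and Actc1, Myl7, Mef2c and Tbx5 in a control library. With PD against control 0 of the 8 passed in edgeR, and all 8 had a negative log2 fold change (median -1.31). The libraries of 6 did not overlap, where 38.7% of all genes tested did not. The authors' deposited table calls Nkx2-5 and Mef2c lower with PD (adjusted p = 0.00935 and 1.46e-05), and the part of these markers in the level of Bmp7 was not tested.

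**Figure D3:**
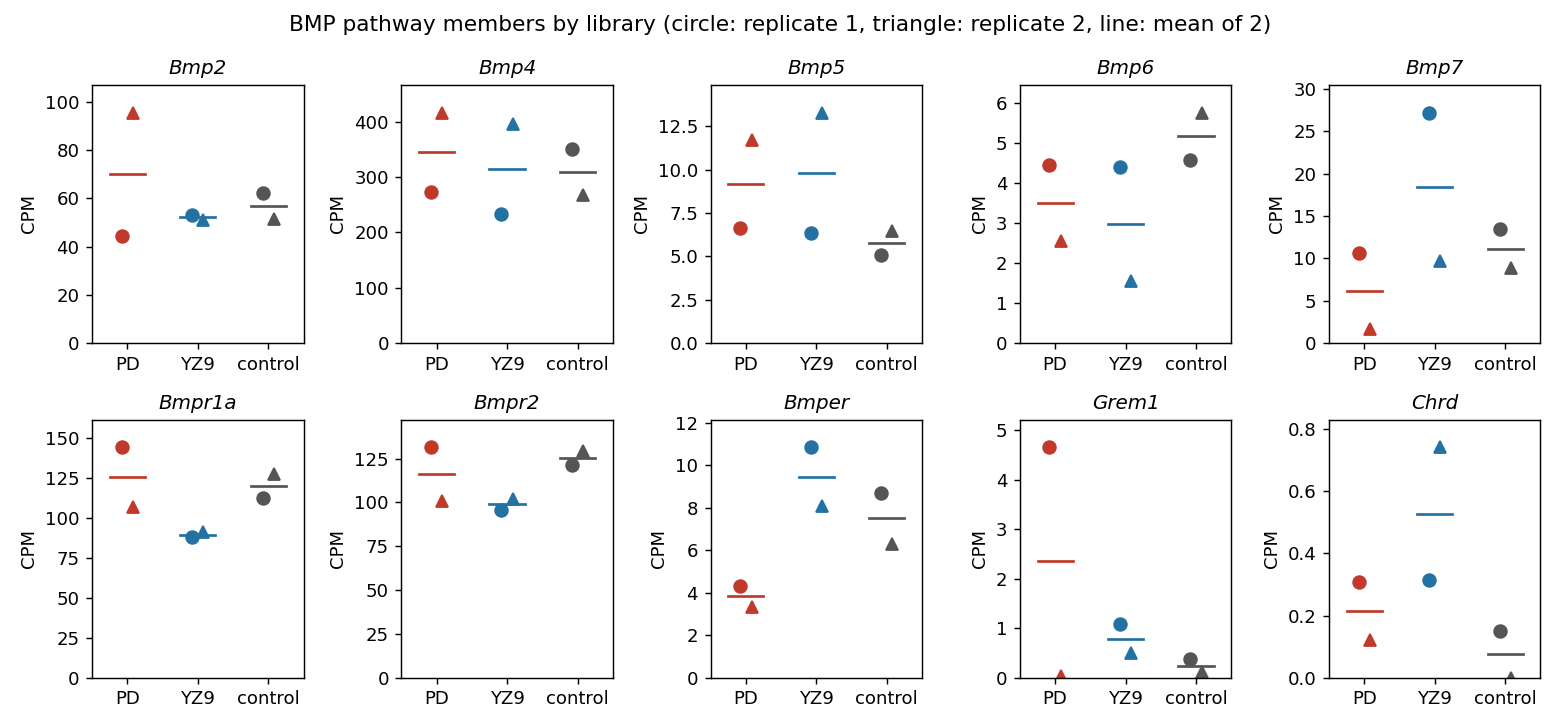
CPM of the 10 members (vertical axes, each from 0) in the PD, YZ9 and control groups. Points are libraries (circle, replicate 1; triangle, replicate 2) and lines the mean of the 2 libraries. Bmper is lowest in both PD libraries, at 4.31 and 3.34 CPM, while Bmp7 and Grem1 differ most between libraries of 1 group.

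The receptor genes had the narrowest ranges of the 9 tested members. Bmpr1a, the type I receptor also called ALK3 (ENSMUSG00000021796, chromosome 14, 34410734 to 34503341), was at 144 and 107 CPM with PD, 88.0 and 91.1 CPM with YZ9, and 113 and 128 CPM in controls. The YZ9 libraries lay below all others, and the PD libraries lay on both sides of the controls. The log2 fold change was 0.063 with PD (SE 0.19, 95% interval -0.38 to 0.51, adjusted p = 0.961) and -0.43 with YZ9 (SE 0.19, 95% interval -0.87 to 0.018, adjusted p = 0.454). PD against YZ9 gave 0.49 (SE 0.19, higher in 2 of 2 PD libraries, unadjusted p = 0.0354 and adjusted p = 0.402 in edgeR). Exons of Bmpr1a share 4.57% of their sequence with the antisense gene Gm17110.

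Bmpr2, the type II receptor (ENSMUSG00000067336, chromosome 1, 59763400 to 59879014), was at 131 and 101 CPM with PD, 95.8 and 102 CPM with YZ9, and 121 and 129 CPM in controls. As for Bmpr1a, both YZ9 libraries lay below both controls and the PD libraries lay on both sides of them. The log2 fold change was -0.11 with PD (SE 0.17, adjusted p = 0.917) and -0.34 with YZ9 (SE 0.17, adjusted p = 0.513). The 95% intervals of the receptors with PD ran from 0.769-fold to 1.42-fold for Bmpr1a and from 0.695-fold to 1.24-fold for Bmpr2, narrower than those of the other 7 tested members. With YZ9 they ran from 0.547-fold to 1.01-fold and from 0.592-fold to 1.05-fold. Per length, Bmpr1a exceeded Bmpr2 by a ratio of 3.11 and 3.02 with PD, 2.60 and 2.53 with YZ9, and 2.64 and 2.80 in controls. The excess stems from the length divisor, 6351 bases of merged annotated exons for Bmpr1a and 17983 for Bmpr2. In CPM the means over all libraries were close, 112 for Bmpr1a and 113 for Bmpr2. Which transcripts of either gene were present was not tested. The ratio per length was chosen after its values were seen, and 2 libraries against 2 allow no 2-sided exact permutation p below 0.333.

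Among the modulators Bmper was the member with the most even difference between PD and the other groups. Bmper encodes a secreted protein with von Willebrand factor type C domains that binds BMPs and is known both to inhibit and to promote their signalling. The gene (ENSMUSG00000031963, chromosome 9, 23223076 to 23485200) was at 4.31 and 3.34 CPM with PD, 10.8 and 8.06 CPM with YZ9, and 8.69 and 6.29 CPM in controls. Both PD libraries lay below all 4 others, from 112 and 83 counts with PD, 242 and 239 counts with YZ9, and 232 and 167 counts in controls. The means were 3.82 ± 0.682 CPM with PD, 9.45 ± 1.96 CPM with YZ9 and 7.49 ± 1.70 CPM in controls (SD, n = 2 each). PD against control gave a log2 fold change of -0.97 (SE 0.34, 95% interval -1.78 to -0.15, unadjusted p = 0.0264 and adjusted p = 0.358 in edgeR). PD against YZ9 gave -1.30 (SE 0.34, 95% interval -2.12 to -0.48, unadjusted p = 0.00739 and adjusted p = 0.268 in edgeR), and DESeq2 on the filtered genes gave an adjusted p of 0.0283. YZ9 against control gave 0.33 (SE 0.33, adjusted p = 0.730). In the fits that left out 1 library the value for PD against control stayed between -1.19 and -0.72. The 6 ERK target genes, 3 of which passed as lower with PD in edgeR, summed to 12.9 and 5.47 CPM with PD, 463 and 227 CPM with YZ9, and 408 and 396 CPM in controls. They were lowest in the same 2 libraries as Bmper, and their part in its level was not tested.

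The promoter windows of Bmper and Bmp4 are shown because Bmper was the member lowest in both PD libraries and Bmp4 the most abundant member, with PD and control libraries that overlapped. The sequences are those of RefSeq on GRCm38.p6, from 250 bases before to 50 bases after the annotated start, chr9:23222826-23223125 on the plus strand for Bmper and chr14:46390620-46390919 on the minus strand for Bmp4. Capitals mark the reverse complement of CGGAAG, the core that ETS factors bind; ETS factors are known targets of the ERK pathway.
Bmper: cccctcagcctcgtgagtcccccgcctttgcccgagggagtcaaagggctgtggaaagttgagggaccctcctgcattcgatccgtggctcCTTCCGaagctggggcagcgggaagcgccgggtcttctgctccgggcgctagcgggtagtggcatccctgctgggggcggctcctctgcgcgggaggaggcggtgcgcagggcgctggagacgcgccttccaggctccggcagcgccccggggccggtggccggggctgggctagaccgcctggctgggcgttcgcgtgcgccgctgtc
Bmp4: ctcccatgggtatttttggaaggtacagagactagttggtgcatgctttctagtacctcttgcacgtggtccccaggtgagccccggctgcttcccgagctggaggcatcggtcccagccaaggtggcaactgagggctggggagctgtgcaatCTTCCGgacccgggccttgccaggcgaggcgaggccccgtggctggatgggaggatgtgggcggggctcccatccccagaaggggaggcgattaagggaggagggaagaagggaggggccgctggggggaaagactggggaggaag
The match lies at chr9:23222917-23222922 in Bmper and at chr14:46390760-46390765 in Bmp4. CGGAAG was searched on both strands, and 16.9% of the 32851 windows in the table hold it. Of the 8 members with a window, Bmper and Bmp4 hold it. The GC-rich element GGCGCC, bound by SMAD1 and SMAD5, is its own reverse complement, and no member's window holds both motifs. It stands in 11.9% of all windows and in those of Bmpr1a, Bmpr2, Grem1 and Chrd. Both motifs were chosen after the expression values were known, and a match is a description of the letters alone.

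Grem1 and Chrd encode secreted antagonists, gremlin and chordin, that bind BMPs and keep them from their receptors. Grem1 (ENSMUSG00000074934, chromosome 2, 113746164 to 113758646) had 121 and 1 counts with PD, 24 and 15 with YZ9, and 10 and 3 in controls. PD replicate 1 held 121 of the 174 counts of all 6 libraries and PD replicate 2 the fewest, so the 2 PD libraries enclose all others, while both YZ9 libraries lay above both controls. The log2 fold change with PD was 3.24 (SE 1.65, 95% interval -0.71 to 7.20, adjusted p = 0.572) and became -2.46 without PD replicate 1 (adjusted p = 0.695). In the male libraries alone, which leave PD replicate 1 as the only PD library, it was 4.23 (adjusted p = 0.0202), where 2.63% of all genes were called. With YZ9 it was 1.66 (SE 1.64, adjusted p = 0.724).

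Markers of endoderm were measured beside Grem1. The 11 markers of visceral endoderm, an extraembryonic tissue, summed to 92.9 and 17.8 CPM with PD, 5.55 and 7.93 CPM with YZ9, and 6.22 and 11.8 CPM in controls. Most of the sum with PD came from Rbp4, at 51.9 and 8.77 CPM, and Afp, at 34.3 and 5.76 CPM. Cubn overlapped between PD and controls, and Apoa1, Apoa4, Apob, Amn and Trf reached at most 0.582 CPM in any library. PD replicate 1 had both the highest sum and the highest Grem1 count, PD replicate 2 had the next highest sum and the lowest Grem1 count, and the defining marker Hnf4a was at 0 in all libraries. The 9 markers of definitive endoderm and node, which include Cdh1 and Epcam of epithelia in general, summed to 159 and 44.4 CPM with PD, 174 and 59.6 CPM with YZ9, and 12.8 and 11.2 CPM in controls. That sum was highest in YZ9 replicate 1 and above both controls in all 4 inhibitor libraries. Most of it there came from the general epithelial genes. Cdh1 was at 79.8 and 21.6 CPM with PD and 113 and 30.7 CPM with YZ9. Epcam was at 51.9 and 9.22 CPM with PD and 38.4 and 17.6 CPM with YZ9. Foxa1 and Foxa2 were also above both controls in all 4, at lower levels, and Sox17 overlapped the controls. Noto, a defining marker of the node, had 1 count in all. With PD against control 0 of the 7 tested visceral endoderm markers and 0 of the 6 tested definitive endoderm and node markers passed in edgeR. The authors' deposited tables call Afp, Foxa1, Foxa2, Cdh1 and Epcam higher with PD (adjusted p = 2.05e-08, 0.00106, 1.25e-06, 3.35e-10 and 0.0316) and Cdh1 and Epcam higher with YZ9 (adjusted p = 1.26e-04 and 1.23e-12). These genes are named because those tables call them, and the part of these markers in the Grem1 counts was not tested.

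Chrd (ENSMUSG00000006958, chromosome 16, 20733127 to 20742384) had 8 and 3 counts with PD, 7 and 22 with YZ9, and 4 and 0 in controls, too few to be tested. The summed counts of YZ9 exceeded those of the controls by a ratio of 7.43 (29 against 4 counts, exact 95% binomial interval 2.61 to 29.1), which covers counting error only and not the spread between libraries. For PD the ratio to controls was 2.88 (11 against 4 counts, interval 0.853 to 12.4). Exons of Chrd share 3.82% of their sequence with Thpo on the opposite strand.

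The share of members whose libraries did not overlap between groups was close to that of all genes or below it. With PD against control these were 3 of the 9 tested, Bmp5 higher and Bmp6 and Bmper lower, where 38.7% of all genes did not overlap. With YZ9 against control they were 4 of the 9, Grem1 higher and Bmp6, Bmpr1a and Bmpr2 lower, where 45.7% of all genes did not overlap. With PD against YZ9 they were 2 of the 9, Bmpr1a higher and Bmper lower, where 43.0% of all genes did not overlap.

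The members differed in how much their libraries varied. The range of log2 CPM over the 6 libraries was 4.94 for Grem1, 3.95 for Bmp7, 1.82 for Bmp6, 1.66 for Bmper, 1.37 for Bmp5, 1.10 for Bmp2, 0.84 for Bmp4, 0.71 for Bmpr1a and 0.46 for Bmpr2. A prior count of 3 was added before the logarithm, which narrows the range at low counts such as those of Grem1. Of all genes tested 1.01% had a wider range than Grem1, 2.68% a wider range than Bmp7 and 83.5% a wider range than Bmpr2. Within both inhibitor groups replicate 2 was higher than replicate 1 for Bmp4 and Bmp5 and lower for Bmp6, Bmp7, Bmper and Grem1. Replicate 2 was the female library in both groups. Between the controls, both male, replicate 2 was also higher for Bmp5 and lower for Bmp7, Bmper and Grem1, while Bmp4 and Bmp6 went the other way. The part of sex in these gaps was not tested.

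**Figure D4:**
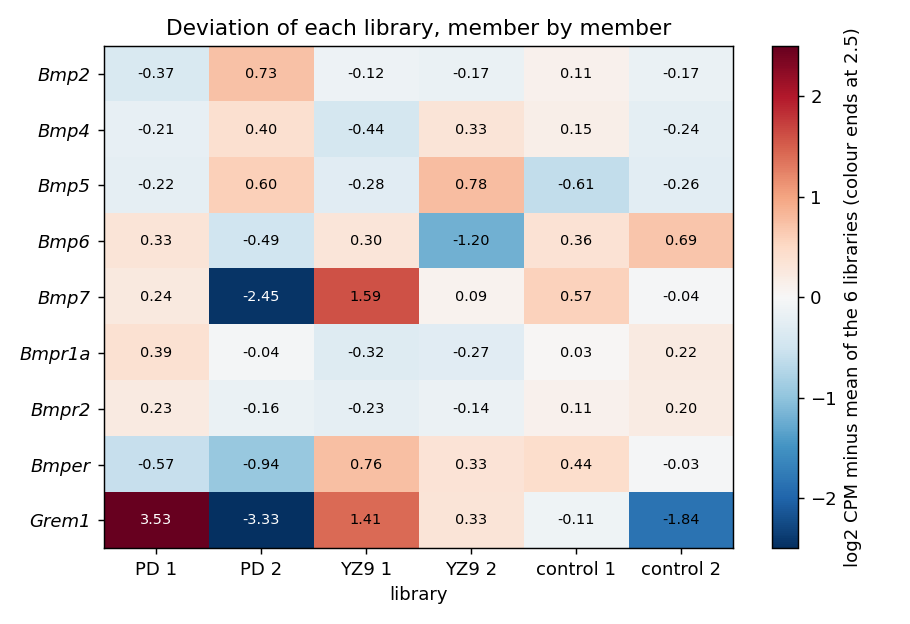
Log2 CPM of each library, with no prior count added, minus the mean of the 6 libraries, for the 9 tested members (rows) in the PD, YZ9 and control libraries (columns). Red is above and blue below the mean, with the value printed in each cell. Bmp7 in PD replicate 2 (-2.45) and Grem1 in PD replicate 1 (3.53) and PD replicate 2 (-3.33) stand furthest from their means, and Bmpr1a and Bmpr2 stay within 0.39 of theirs.

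Around the members, 1 other gene of the pathway passed the test. Id1, a target of SMAD1 and SMAD5 that encodes an inhibitor of basic helix-loop-helix factors, was at 16.3 and 9.18 CPM with PD, 101 and 78.5 CPM with YZ9, and 66.1 and 56.9 CPM in controls. Both PD libraries lay below all others, and Id1 fell with PD against YZ9 (log2 fold change -2.82, SE 0.31, lower in 2 of 2 libraries, edgeR adjusted p = 0.0488, where 0.0450% of all genes were called lower). It did not pass for PD against control (log2 fold change -2.27, SE 0.31, adjusted p = 0.101), although the authors' deposited table gives an adjusted p of 1.75e-08 there and edgeR with no filter and DESeq2 on the filtered genes gave 1.84e-06 and 5.75e-09, nor for YZ9 against control (log2 fold change 0.54, SE 0.29, adjusted p = 0.529). Against YZ9 the call ended without any 1 of control replicate 1, control replicate 2, PD replicate 2, YZ9 replicate 1 and YZ9 replicate 2 (adjusted p = 0.189, 0.191, 0.0526, 0.164 and 0.0996). It also ended with DESeq2 size factors (adjusted p = 0.0519) and in the 4 libraries alone (adjusted p = 0.216). The call held in 9 of the 16 alternatives, and the log2 fold change lay between -3.29 and -2.47 in all 16. Of the other 9 genes on the list of BMP targets, 0 passed in edgeR in any of the 3 comparisons, and over the tested targets the median log2 fold change was -0.16 with PD, 0.53 with YZ9 and -0.74 for PD against YZ9. The authors' deposited tables also call Msx2 higher with PD (adjusted p = 0.00111) and Msx1 and Id2 higher with YZ9 (adjusted p = 0.0458 and 5.62e-08). Msx2, a homeobox gene chosen here after its values were seen, was at 115 and 130 CPM with PD, 58.5 and 105 CPM with YZ9, and 58.5 and 32.7 CPM in controls (log2 fold change with PD 1.42, SE 0.36, edgeR adjusted p = 0.225). Id3, a related target, was at 286 and 101 CPM with PD, 363 and 307 CPM with YZ9, and 366 and 371 CPM in controls. Hand1, a factor of extraembryonic and lateral mesoderm, was at 172 and 603 CPM with PD, 179 and 459 CPM with YZ9, and 242 and 125 CPM in controls.

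Of the 9 other ligand genes 5 had enough counts to be tested, and 0 passed in edgeR in any comparison. Gdf6, the highest in CPM, was at 6.80 and 21.4 CPM with PD, 12.4 and 17.7 CPM with YZ9, and 21.4 and 11.3 CPM in controls. Bmp8a was highest in YZ9 replicate 1, at 1.93 CPM, and Gdf2 in PD replicate 2, at 2.98 CPM. Bmp3, chosen after its values were seen, had 54 and 15 counts with PD, 2 and 0 with YZ9, and 0 and 2 in controls. It did not pass for PD against control in edgeR (adjusted p = 0.259), and the authors' deposited table gives an adjusted p of 0.0390. Bmp10 and Gdf7 had 0 counts in all libraries.

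Of the 10 other receptors and co-receptors 9 were tested and 0 passed. Tgfbr3, the co-receptor betaglycan, was at 68.9 and 274 CPM with PD, 38.0 and 148 CPM with YZ9, and 63.3 and 67.2 CPM in controls, so replicate 2 was the higher library of both inhibitor groups. Acvr2a, a type II receptor shared with activin, was at 41.5 and 43.0 CPM with PD, 39.2 and 40.8 CPM with YZ9, and 35.0 and 32.9 CPM in controls (log2 fold change 0.32, SE 0.17, with PD and 0.24, SE 0.17, with YZ9; adjusted p = 0.595 and 0.626). Exons of Acvr2a share 7.84% of their sequence with Orc4 on the opposite strand. Acvr1, the type I receptor ALK2, was at 20.4 and 15.7 CPM with PD, 15.4 and 20.9 CPM with YZ9, and 28.3 and 24.4 CPM in controls (log2 fold change -0.55 with PD and -0.54 with YZ9, SE 0.26 for both; adjusted p = 0.542 and 0.493). Eng, the co-receptor endoglin of endothelium, which was chosen after its values were seen, had a log2 fold change of -1.44 with PD (SE 0.42, adjusted p = 0.260 in edgeR), and the authors' deposited table gives an adjusted p of 0.0116.

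Of the 20 other antagonists and extracellular modulators 15 were tested and 0 passed. Fstl1, a secreted glycoprotein of the follistatin family and the most abundant of them, was at 1266 and 1136 CPM with PD, 759 and 589 CPM with YZ9, and 923 and 969 CPM in controls. It was highest in the PD libraries and lowest in the YZ9 libraries, with a log2 fold change of 0.83 for PD against YZ9 (SE 0.16, unadjusted p = 0.00159 and adjusted p = 0.146 in edgeR). Bambi, a decoy receptor that lacks the kinase domain, was at 118 and 111 CPM with PD, 165 and 236 CPM with YZ9, and 162 and 131 CPM in controls (log2 fold change for PD against YZ9 -0.80, SE 0.21, adjusted p = 0.268). Twsg1, which binds BMPs together with chordin, was at 98.1 and 81.8 CPM with PD, 87.3 and 88.9 CPM with YZ9, and 70.3 and 66.6 CPM in controls. Fst, the antagonist follistatin, and Tll1, a protease that cleaves chordin, were chosen after their values were seen. Fst was at 16.5 and 15.9 CPM with PD, 13.3 and 4.25 CPM with YZ9, and 30.4 and 34.1 CPM in controls, and the authors' deposited tables give adjusted p of 0.0118 for PD and 0.00274 for YZ9. Tll1 was at 4.15 and 1.57 CPM with PD, 2.33 and 1.28 CPM with YZ9, and 10.2 and 7.72 CPM in controls, and the authors' deposited tables give an adjusted p of 1.67e-04 for YZ9. In edgeR both stayed above the threshold (adjusted p = 0.554 and 0.269 for Fst, 0.335 and 0.253 for Tll1, with PD and with YZ9).

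All 8 SMAD transducers, inhibitors and SMURF ligases were tested and 0 passed in any comparison. Smad4, the shared partner of all receptor SMADs, was at 98.1 and 47.0 CPM with PD, 90.4 and 62.6 CPM with YZ9, and 89.2 and 85.1 CPM in controls. Smad5 was at 38.9 and 46.1 CPM with PD, 56.4 and 51.8 CPM with YZ9, and 68.3 and 51.2 CPM in controls (log2 fold change -0.49 with PD, SE 0.20, adjusted p = 0.461). Smurf2, a ubiquitin ligase that acts on SMADs and receptors, was at 42.2 and 35.9 CPM with PD, 48.4 and 50.1 CPM with YZ9, and 43.1 and 37.8 CPM in controls. Their median log2 fold change was -0.26 with PD, 0.059 with YZ9 and -0.42 for PD against YZ9. Bambi, Smad6 and Smad7 stand both on these lists and on that of BMP targets.

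**Figure D5:**
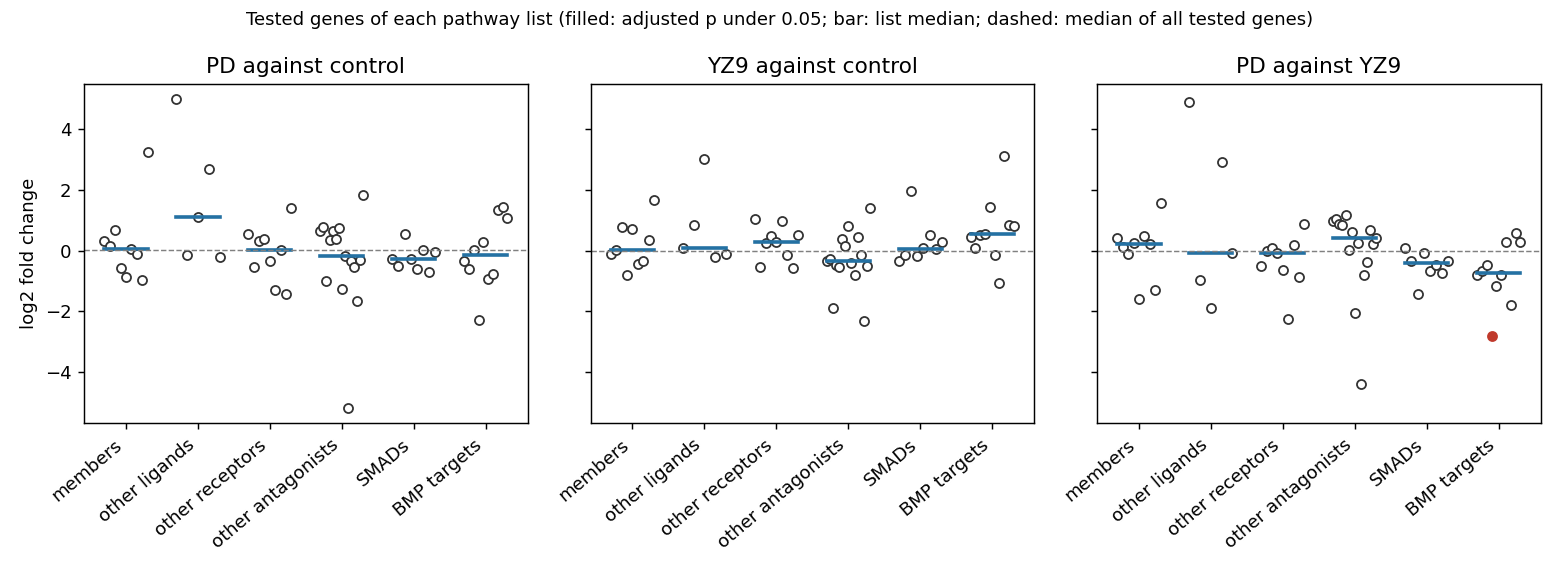
Fitted log2 fold change (vertical axis) of every tested gene of the 6 pathway lists in the 3 comparisons. Filled points passed an adjusted p of 0.05 over all genes, bars are the list medians and the dashed line is the median of all genes tested. The 1 filled point is Id1 for PD against YZ9, at -2.82.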

How the data were processed

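Polyadenylated RNA of 6 libraries was sequenced after low-input template switching. The submitters' processing notes name CASAVA 1.8.2, STAR 2.7.9a, DESeq2 1.40.1 and GRCm38; the counter and annotation release are not stated there. Per the file headers, the deposited values are whole-number counts per gene and library, and the deposited normalized columns are a signal, counts divided by a size factor per library. The log2 fold change, its score (the Wald statistic) and the p-value, raw and adjusted, are the authors' deposited test results. The counts of both tables were joined, since their control columns are identical. In R 4.3.3, genes were filtered with filterByExpr (minimum count 10, minimum total 15), which left 15568, scaled by TMM and tested with edgeR 4.0.16 by quasi-likelihood, 2-sided, all 6 libraries in 1 fit, with Benjamini-Hochberg adjustment over all genes. Each SE was obtained by dividing the size of the log2 fold change by the root of its F statistic. Alternatives used DESeq2 1.42.0 and limma 3.58.1 (prior count 3). Lengths and positions come from GENCODE M21 (GRCm38), which held 98.2% of the gene IDs. Libraries of 1 group were compared by chi-square, whose mean per gene was 90.7 with PD, 58.4 with YZ9 and 51.9 in controls, where counting error alone gives about 1. The fit was run on simulated counts with known fold changes in genes above a CPM floor. The pass rule of that run concerned only the estimated size of those changes. It therefore says nothing about calls of low-count members. All members are named, and of each other pathway list the genes that passed and the 3 highest in CPM. The members and lists were chosen with earlier results of these data known.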

Additional observations from a re-analysis of the deposited data

How the results depend on the processing

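Across the alternatives the number of members called stayed at 0, with these exceptions: DESeq2 called 1 for PD against YZ9 (Bmper), with and without the filter, and the male libraries alone gave 1 for PD against control (Grem1). DESeq2 without the filter called 3.22% of all genes for PD against YZ9. In each fit that left out 1 library, 0 members were called. Over all genes edgeR called between 0 and 712 in the 3 comparisons, the highest with no filter on low counts, and DESeq2 between 510 and 629. Of 428 log2 fold changes of members under alternatives, 395 kept their sign and stayed above the threshold, 3 passed it and 30 changed sign. With the replicate number as a block 0 members were called, and Bmp4 with YZ9 became -0.038; with limma-trend it was -0.0098. Deviations of same-numbered libraries correlated over 15568 genes at -0.098 for PD with control, 0.17 for YZ9 with control and 0.35 for PD with YZ9. The main fit did not take the numbers as pairs. In both PD and YZ9 replicate 1 was male and replicate 2 female, and for PD against YZ9 the main fit leaves this shared order out. With sex in the model Bmp2 with PD became -0.035, Bmp4 with PD -0.21 and Bmp4 with YZ9 -0.37. In the male libraries alone Bmp2 with PD became -0.35, Bmp4 with PD -0.18, Bmpr2 with PD 0.071, Bmp4 with YZ9 -0.39, Bmp2 for PD against YZ9 -0.27 and Bmp5 for PD against YZ9 0.050. Fits that left out 1 library gave, with PD against control, -0.35 to 0.75 for Bmp2, -0.18 to 0.44 for Bmp4, -0.17 to 0.26 for Bmpr1a, -0.31 to 0.070 for Bmpr2 and -2.46 to 4.32 for Grem1. With YZ9 against control they gave -0.26 to 0.018 for Bmp2, -0.39 to 0.37 for Bmp4 and -0.20 to 1.31 for Bmp7. For PD against YZ9 they gave -0.24 to 0.88 for Bmp2, -0.21 to 0.55 for Bmp4, -0.58 to 0.51 for Bmp5, -0.34 to 1.16 for Bmp6 and -4.13 to 2.55 for Grem1. The cause of these reversals was not tested. A fit without 1 library assumes that the lone library of its group varies like the other groups. Depth limited Chrd, with 44 counts in all 6 libraries.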

Other observations

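The genes Msx1, Nog and Id2 of the pathway are not members and were chosen here after their values were seen. Msx1, a homeobox gene known as a BMP target, was at 7.84 and 69.9 CPM with PD, 49.9 and 216 CPM with YZ9, and 20.0 and 10.5 CPM in controls. Nog, the antagonist noggin, was at 21.9 and 18.7 CPM with PD, 14.9 and 5.83 CPM with YZ9, and 14.2 and 11.9 CPM in controls. Id2, a further target, was at 159 and 27.7 CPM with PD, 213 and 205 CPM with YZ9, and 77.0 and 77.2 CPM in controls, and the authors' deposited table gives an adjusted p of 5.62e-08 for YZ9.

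Bmp7 was the member with the widest range among those with a mean count of at least 50, and among the genes whose log2 CPM followed it most closely over the 6 libraries were Camsap2, Prelid3a, Shb and Smyd1 (Pearson r 0.991 to 0.997, as a description). Smyd1, a methyltransferase gene of heart and skeletal muscle, was at 59.4 and 9.34 CPM with PD, 137 and 53.9 CPM with YZ9, and 89.7 and 60.1 CPM in controls. The 6 points share library and depth, and with so few libraries many genes follow any pattern closely.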
